A study of Rattus norvegicus with 10 samples.

Results

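The serpin genes described here are the measured genes whose only platform symbol begins with Serpin, 46 of 18166 named genes, each with 1 probe set. The 46 members comprise 18 genes of clade A, 18 of clade B, 1 each of clades C, D, G and H, and 2 each of clades E, F and I. Values are log2 expression values (RMA) from 10 Affymetrix rat arrays of Zucker rat testes, all labelled as model Zucker (fa/fa), a leptin receptor mutant, and as collected at 14 weeks of age from sexually mature animals. Obese rats gave 4 arrays of normal testes (normal obese) and 4 of under-developed testes, and lean rats gave 2 of normal testes. The lean samples share the fa/fa label and a protocol written for obese animals, which leaves the lean genotype unknown. Replicates are titled biological without a statement on the number of animals, and a p-value here reflects only how much these samples scatter, which may be technical.

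The serpins are a family of proteins named for their serine protease inhibitors, and their genes are grouped by descent into lettered clades. An inhibitory serpin offers an exposed loop to a protease, is cut in it, and then changes shape so that the protease is trapped and both molecules are spent. Clade B members mostly act inside cells, most other clades are secreted, and some members (the collagen chaperone of clade H, the hormone carriers Serpina6 and Serpina7) inhibit no protease. In the testis, secreted and intracellular serpins of Sertoli, germ and interstitial cells meet plasminogen activators, cathepsins, complement and acrosomal proteases.

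Under-developed replicate 4 stood apart from the rest of its group. It was at least 1 log2 (2-fold) above the normal obese mean for 7 genes (0.0385% of all genes) and below it for 1 gene (0.00550%), against 1373 to 3496 genes above and 1122 to 3060 below in replicates 1 to 3. Its spermatocyte and spermatid markers summed to 82172 on the linear scale, close to the 82919 to 84888 of normal obese arrays, against 6180 to 56990 in replicates 1 to 3. Over these measures the array labelled under-developed replicate 4 resembled normal testes. Whether its label is wrong or the testis was mildly affected was not tested, and the all-array values mix it with the other 3. Calls are therefore given with and without it, an array set apart only once its values were known. Array medians ran from 6.14 to 6.38. The labelled tissue was borne out by its markers in the normal arrays, with the transition protein gene Tnp1 at 13.37 ± 0.04 and the Sertoli cell gene Clu at 12.60 ± 0.05 log2 (SD, n = 4) in normal obese testes. In a whole tissue, fewer cells of a type and less RNA per cell cannot be told apart.

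Most serpins differed little between the testes, and a small set differed widely. In under-developed replicates 1, 2 and 3, 7, 6 and 8 of the 46 members were at least 1 log2 above the normal obese mean, where 15.5%, 7.56% and 19.2% of all genes were. Only 1, 1 and 3 members were at least 1 log2 below it, where 15.6%, 6.18% and 16.8% of all genes were. Replicate 4 had 1 member above and 0 below. Over the members, the median absolute difference was 0.22, 0.20, 0.23 and 0.16 log2 in replicates 1 to 4, against 0.53, 0.35, 0.63 and 0.11 over all genes. The map of differences shows this as a few strongly coloured rows among pale ones.

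**Figure D1:**
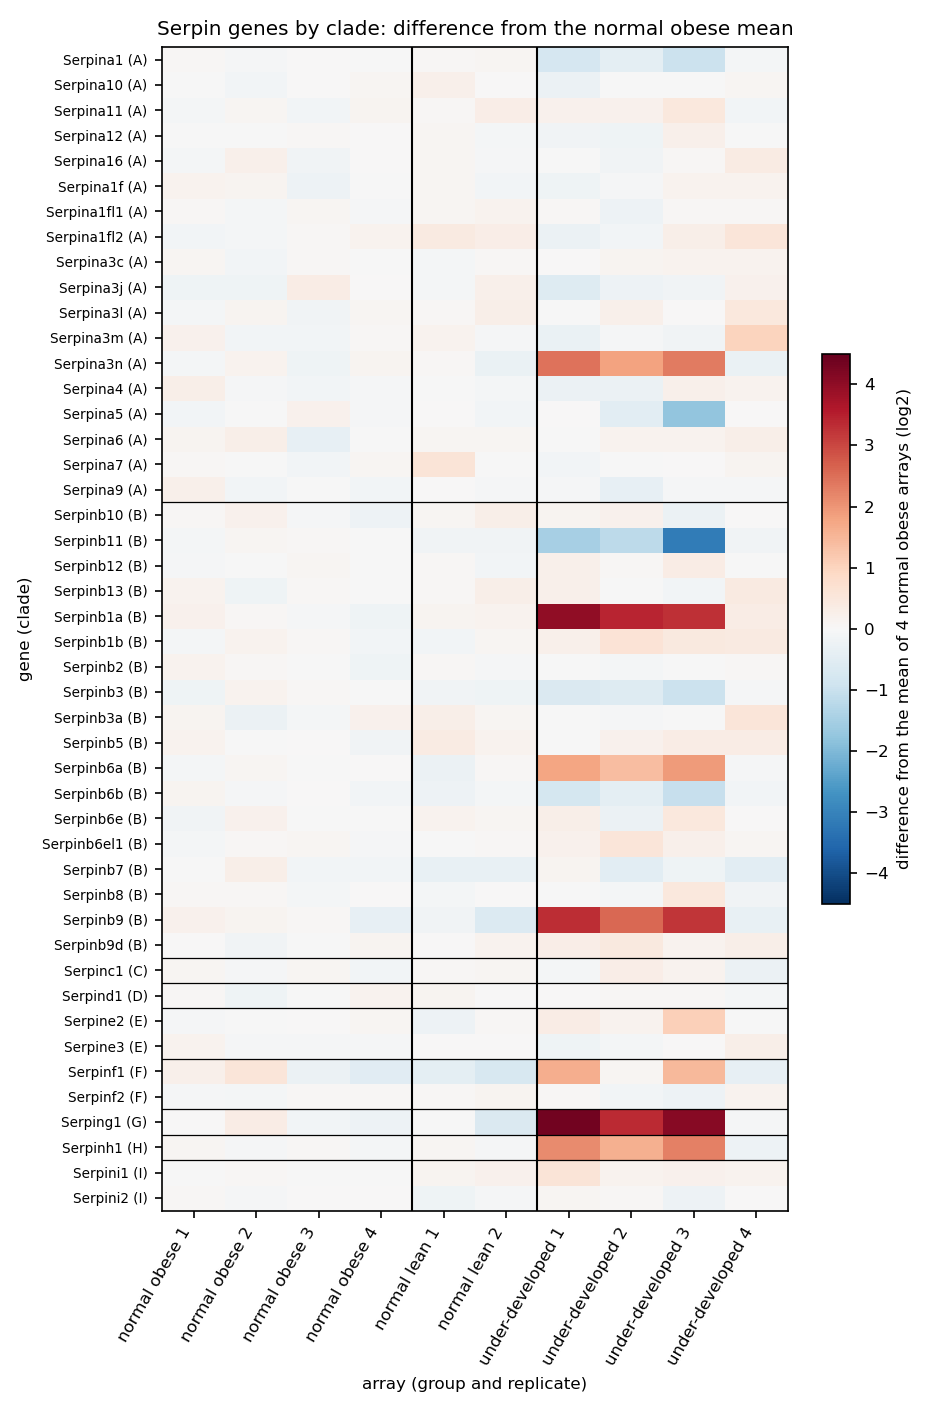
Difference between each array and the normal obese mean (colour, log2) for the 46 serpin genes (rows, with clade) in the 10 arrays (columns). Serping1, Serpinb1a, Serpinb9, Serpina3n, Serpinh1 and Serpinb6a are high and Serpinb11 is low in under-developed replicates 1 to 3, and replicate 4 resembles the normal arrays in these rows.

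With all arrays, limma called 0 members in under-developed against normal obese testes, where it called 0.00% of all genes in either direction. At an unadjusted p under 0.05 there were 10 members higher and 4 lower in limma, against 24.4% and 22.3% of all genes. Without replicate 4, limma called 11 members higher (29.6% of all genes were called higher) and 4 lower (26.4% of all genes). The members' shares were 23.9% and 8.70%. Of the 11, 6 were also called after median centring, quantile normalization and centring on ribosomal protein genes, and the other 5 were called under none of these scalings. The 4 lower members were called under each of these scalings. Centring on ribosomal protein genes, which moved the median of all genes from 0.07 to −0.30 log2, called 22 members and 46.1% of all genes lower.

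The members were also counted by clade, with no test between clades. Without replicate 4, 6 clade B genes rose, 3 fell and 9 did not pass, while in clade A 1 rose, 1 fell and 16 did not pass. Over all genes 29.6% rose and 26.4% fell, and 3 of the 6 clade B rises (Serpinb1b, Serpinb9d and Serpinb6el1) passed under none of the 3 other scalings. In clades E and F 1 of 2 members rose in each, Serpine2 and Serpinf1, which also passed under none of the 3 other scalings. The single members of clades G and H rose. The members of clades C, D and I did not pass. The fitted difference over all arrays had a median of 0.01 log2 in clade A, 0.12 in clade B, 0.08 over all members and 0.06 over all genes. In normal obese testes 39 of the 46 members had a level below the median of all genes, although a level also depends on the probes. Members whose mean over all arrays was at or above the median of all genes (7.01) numbered 10, of which 6 rose and 3 fell without replicate 4 (90.0%, against 78.4% of all genes at such levels). Of the 36 below it, 5 rose and 1 fell (16.7%, against 33.5%). The mean over all arrays includes the under-developed arrays. Serping1, Serpina3n and Serpinf1, which all rose, reached the median only through their high under-developed arrays and lay below it in normal obese testes. The contrast between the levels is therefore partly built in by the rises that it counts. A split by level in normal testes alone was not tested.

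Serping1, of clade G, encodes the C1 inhibitor, which blocks the complement proteases C1r and C1s and the contact proteases kallikrein and factor XIIa. It stood at 6.22, 6.54, 6.06 and 5.97 log2 in normal obese replicates 1 to 4, at 10.54, 9.54, 10.29 and 6.15 in under-developed replicates 1 to 4, and at 6.19 and 5.56 in the lean replicates. Under-developed replicates 1 to 3 lay far above all 6 normal arrays, and replicate 4 lay among them. The fitted difference with all arrays was 2.93 ± 0.84 log2 (SE), with a limma adjusted p of 0.0702. Without replicate 4 it was 3.92 ± 0.26, or 15.1-fold, with a limma adjusted p of 5.04e-05, and it ran from 3.56 to 4.10 under the other scalings. It had the highest fitted difference of the 46 members.

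The intracellular serpins with the widest rise were Serpinb1a and Serpinb9. Serpinb1a is the counterpart of the inhibitor of neutrophil elastase and cathepsin G. Its values were 4.83, 4.69, 4.56 and 4.43 in normal obese replicates, 8.62, 8.06, 7.90 and 4.97 in under-developed replicates, and 4.75 and 4.78 in lean replicates. All 4 under-developed arrays lay above the normal arrays, replicate 4 by a narrow margin. Its difference without replicate 4 was 3.56 ± 0.18 log2 (11.8-fold, limma adjusted p = 4.65e-05), and with all arrays 2.76 ± 0.68 (adjusted p = 0.0702).

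Serpinb9 belongs to the clade B inhibitors of granzyme B, which protect cells from the granules of cytotoxic lymphocytes. It stood at 7.50, 7.46, 7.38 and 6.95 in normal obese replicates, at 10.64, 9.89, 10.53 and 6.98 in under-developed replicates, and at 7.17 and 6.72 in lean replicates. Replicates 1 to 3 were high and replicate 4 lay within the normal range. It rose by 3.03 ± 0.22 log2 without replicate 4 (8.16-fold, limma adjusted p = 5.74e-05), while the fit of all arrays gave 2.19 ± 0.72 (adjusted p = 0.0702). Serpinb6a, an intracellular inhibitor of trypsin-like proteases and cathepsin G, was 9.17, 9.37, 9.25 and 9.29 in normal obese, 11.04, 10.66, 11.20 and 9.20 in under-developed and 9.02 and 9.33 in lean replicates. The same 3 arrays were high. Its difference without replicate 4 was 1.70 ± 0.15 log2 (3.25-fold, limma adjusted p = 7.05e-05), and with all arrays 1.26 ± 0.38 (adjusted p = 0.0702).

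Serpina3n was the only clade A gene that rose. It encodes a secreted acute-phase inhibitor related to antichymotrypsin. Its values were 6.66, 6.90, 6.53 and 6.87 in normal obese, 9.19, 8.56, 9.09 and 6.44 in under-developed, and 6.80 and 6.43 in lean replicates. Replicate 4 fell below the normal obese values and just above the lower lean value. The difference without replicate 4 was 2.21 ± 0.18 log2 (4.62-fold, limma adjusted p = 6.75e-05), and with all arrays 1.58 ± 0.54 (adjusted p = 0.0703).

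Serpinh1 (Hsp47), a chaperone of the endoplasmic reticulum that holds newly made procollagen, inhibits no protease. It stood at 7.68, 7.55, 7.65 and 7.50 in normal obese, at 9.73, 9.19, 9.86 and 7.38 in under-developed, and at 7.67 and 7.53 in lean replicates. Replicates 1 to 3 were high and replicate 4 lay below all 6 normal arrays. It rose by 2.00 ± 0.16 log2 without replicate 4 (3.99-fold, limma adjusted p = 6.33e-05), and the fit of all arrays gave 1.44 ± 0.47 (adjusted p = 0.0702).

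RefSeq promoters were matched for 37 of the 46 members. Serpinb1a, Serpinb9, Serpina3n, Serpinh1 and Serpinb6a were chosen because they were high in the same 3 arrays. In these arrays 28.7% of all genes lay above all 6 normal arrays. The 250 bases before each start are shown, 5′ to 3′ on each gene's own strand in build GRCr8. They lie at chr17:31799196-31799445 on the plus strand, chr17:31640817-31641066 on the minus strand, chr6:129088142-129088391 on the plus strand and chr1:163062977-163063226 on the minus strand. Serpinb6a has a pair of listed starts, with promoters at chr17:31076561-31076810 and chr17:31176005-31176254 on the plus strand. Serping1 had no match. Capitals mark matches, on either strand, to motifs described after the sequences.
Serpinb1a: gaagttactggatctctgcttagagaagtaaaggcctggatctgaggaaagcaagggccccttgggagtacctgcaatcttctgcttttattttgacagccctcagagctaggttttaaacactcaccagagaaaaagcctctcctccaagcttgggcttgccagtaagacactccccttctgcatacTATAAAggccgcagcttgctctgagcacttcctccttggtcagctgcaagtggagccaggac
Serpinb9: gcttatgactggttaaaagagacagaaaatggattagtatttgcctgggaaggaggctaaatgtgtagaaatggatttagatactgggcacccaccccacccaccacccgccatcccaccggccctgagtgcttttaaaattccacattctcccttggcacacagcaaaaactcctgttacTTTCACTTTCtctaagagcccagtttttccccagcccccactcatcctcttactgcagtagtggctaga
Serpina3n: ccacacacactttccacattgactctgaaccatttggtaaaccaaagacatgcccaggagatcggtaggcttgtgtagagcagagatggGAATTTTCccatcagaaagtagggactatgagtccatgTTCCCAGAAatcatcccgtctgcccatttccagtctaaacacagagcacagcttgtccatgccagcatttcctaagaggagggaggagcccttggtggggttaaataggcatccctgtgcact
Serpinh1: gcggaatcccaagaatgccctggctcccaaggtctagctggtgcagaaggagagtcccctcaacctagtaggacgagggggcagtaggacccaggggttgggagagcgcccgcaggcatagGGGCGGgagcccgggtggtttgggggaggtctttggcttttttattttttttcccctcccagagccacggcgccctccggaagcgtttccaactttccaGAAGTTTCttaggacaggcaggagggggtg
Serpinb6a, promoter 1: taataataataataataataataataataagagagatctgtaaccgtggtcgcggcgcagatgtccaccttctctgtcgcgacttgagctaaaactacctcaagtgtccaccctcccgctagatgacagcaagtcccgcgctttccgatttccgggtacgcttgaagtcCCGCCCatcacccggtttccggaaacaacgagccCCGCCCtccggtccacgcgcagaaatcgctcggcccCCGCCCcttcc
Serpinb6a, promoter 2: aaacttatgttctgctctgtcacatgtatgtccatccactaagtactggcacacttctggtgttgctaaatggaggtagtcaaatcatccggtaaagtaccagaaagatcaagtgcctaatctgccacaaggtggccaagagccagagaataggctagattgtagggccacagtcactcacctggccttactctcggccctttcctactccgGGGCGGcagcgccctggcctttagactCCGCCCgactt

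Among the letters searched on both strands were TTCNNNGAA (a STAT site) and GAANNTTC (a heat shock element). The searches also took GGGCGG (a GC box) and the CCAAT box. The last were the core promoter letters TATAAA and an interferon response element core, which is GAAA repeated with any 2 bases between. No matches shown overlap, and the motifs were chosen with the expression results known. Serpinb1a has TATAAA from base −62 to −57 before its start, and 12.9% of 33469 promoters hold that motif. Serpinb9 has the interferon element core, on the other strand, from −69 to −60 (3.41% of promoters). Serpina3n has TTCNNNGAA from −123 to −115 (7.67% of promoters) and GAANNTTC from −161 to −154 (7.23%). Serpinh1 has GAANNTTC from −30 to −23 and the GC box letters from −129 to −124 (30.5%). The Serpinb6a promoters hold the GC box letters 3 times and 2 times. The promoter of Serpinb11, which was low in under-developed replicates 1 to 3, was searched too and held no match. Of 40 member promoters, 6 hold TATAAA, 2 the interferon element core, 4 TTCNNNGAA, 6 GAANNTTC and 8 the GC box letters. These are matches of letters, with no binding measured here.

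**Figure D2:**
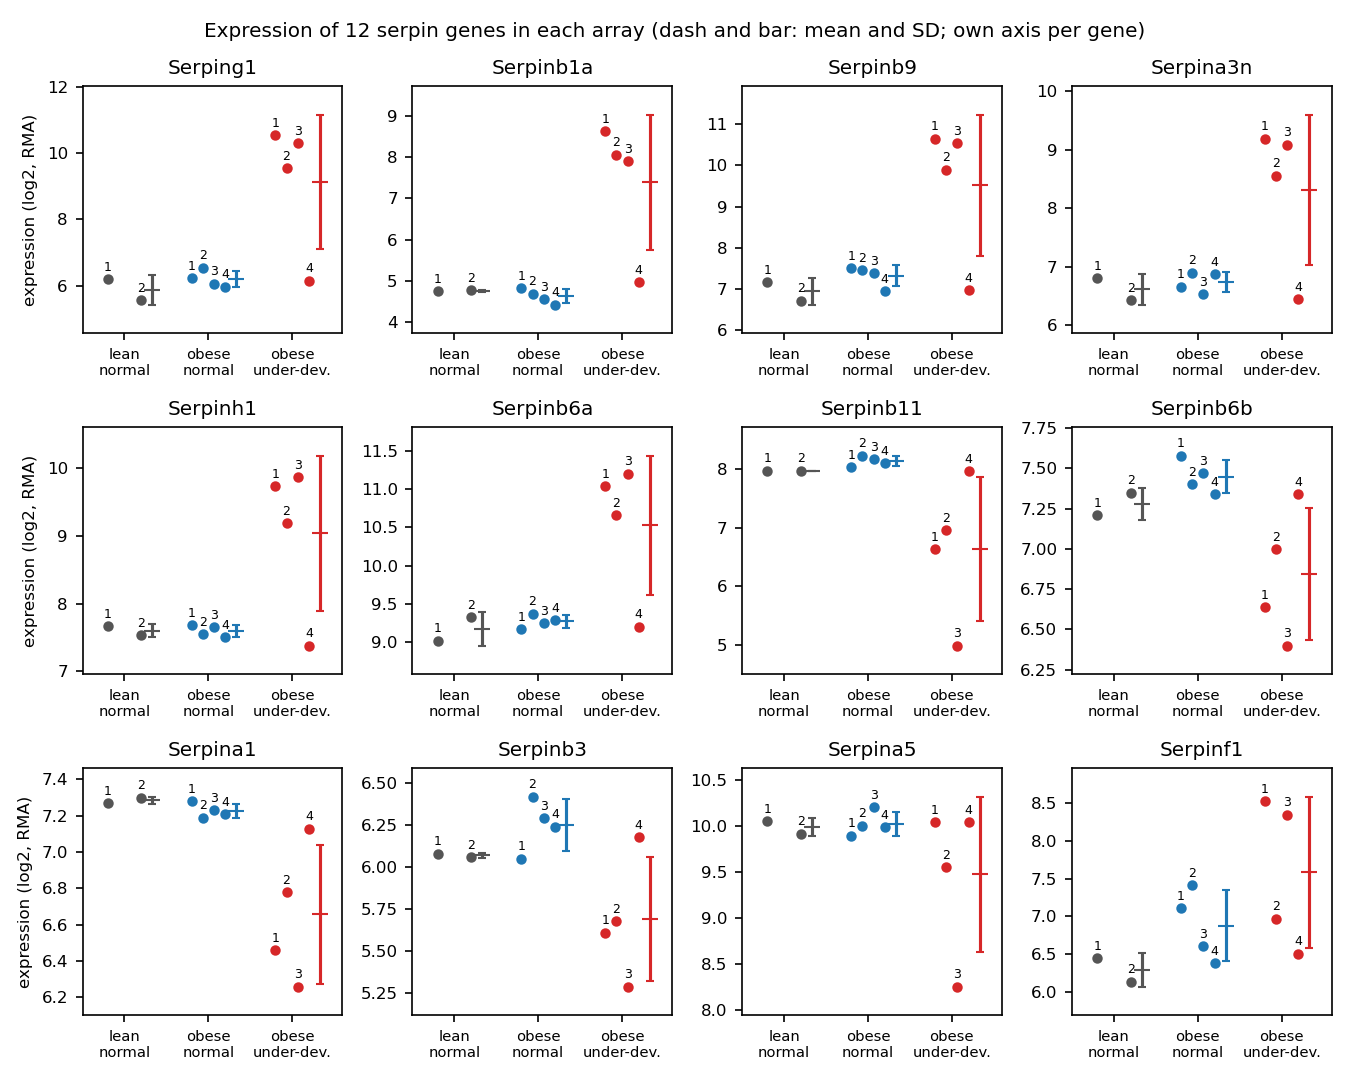
Log2 expression of 12 serpin genes (1 panel each, own vertical axis) in lean normal, obese normal and obese under-developed testes, with points numbered by replicate and the mean and SD beside them. Under-developed replicates 1 to 3 stand apart from the normal arrays in the first 10 panels, while Serpina5 is low in replicates 2 and 3 and Serpinf1 is high in replicates 1 and 3.

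A further 5 members rose without replicate 4 on the deposited scale, by less, and none of them passed after median centring, quantile normalization or centring on ribosomal protein genes. Serpinf1 encodes the secreted pigment epithelium-derived factor, an inhibitor of vessel growth that blocks no protease. It was 7.11, 7.41, 6.61 and 6.38 in normal obese, 8.52, 6.97, 8.34 and 6.51 in under-developed and 6.45 and 6.14 in lean replicates. Replicates 1 and 3 were high, and replicates 2 and 4 lay within the normal range. Its difference was 1.07 ± 0.39 log2 without replicate 4 (limma adjusted p = 0.0424) and 0.71 ± 0.46 with all arrays (adjusted p = 0.247). Serpine2 encodes protease nexin-1, a secreted inhibitor of thrombin and plasminogen activators. It stood at 5.86 to 6.01 in normal obese arrays, at 6.27, 6.09, 6.98 and 5.91 in under-developed replicates 1 to 4 and at 5.70 and 5.96 in lean arrays. Replicate 3 was the highest, and the difference without replicate 4 was 0.53 ± 0.20 log2 (limma adjusted p = 0.0476), against 0.39 ± 0.21 with all arrays (adjusted p = 0.172).

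The remaining 3 of these were clade B genes at the low end of the scale, Serpinb1b, Serpinb9d and Serpinb6el1. They differed by 0.42 ± 0.13, 0.30 ± 0.11 and 0.33 ± 0.12 log2 without replicate 4, with limma adjusted p of 0.0198, 0.0433 and 0.0374. With all arrays the differences were 0.42 ± 0.12, 0.29 ± 0.11 and 0.27 ± 0.12, with limma adjusted p of 0.0702, 0.0725 and 0.107. Centring on ribosomal protein genes turned Serpinb9d and Serpinb6el1 negative (−0.06 and −0.03) and left Serpinb1b at 0.06. These 3, named after their values were seen, have close relatives in the family, and how the probe sets separate such copies is not given in the sources used here. Leaving out normal obese replicate 1 beside under-developed replicate 4 ended all 5 calls and left 6 higher members.

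Serpinb11, a clade B gene, had the lowest fitted difference of the 46 members. It stood at 8.03, 8.23, 8.17 and 8.10 in normal obese, at 6.63, 6.96, 4.99 and 7.96 in under-developed and at 7.97 and 7.97 in lean replicates. Replicate 3 was by far the lowest, replicates 1 and 2 lay between it and the normal arrays, and replicate 4 lay just under them. The difference with all arrays was −1.50 ± 0.51 log2 (limma adjusted p = 0.0703). Without replicate 4 it was −1.94 ± 0.40 (3.85-fold lower, limma adjusted p = 0.00306).

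Serpina1, Serpinb6b and Serpinb3 fell by less. Serpina1, the secreted inhibitor of neutrophil elastase, was 7.19 to 7.28 in normal obese arrays, 6.46, 6.78, 6.26 and 7.13 in under-developed replicates 1 to 4 and 7.27 and 7.30 in lean arrays. All 4 under-developed arrays lay below the normal arrays, and the difference without replicate 4 was −0.73 ± 0.13 log2 (limma adjusted p = 0.00139). Serpinb6b was 7.34 to 7.58 in normal obese, 6.64, 7.0, 6.40 and 7.34 in under-developed and 7.21 and 7.35 in lean arrays. Its difference without replicate 4 was −0.76 ± 0.15 log2 (limma adjusted p = 0.0022), opposite to that of its relative Serpinb6a. Serpinb3 was 6.05 to 6.42 in normal obese, 5.61, 5.68, 5.29 and 6.18 in under-developed and 6.08 and 6.06 in lean arrays, with a difference of −0.73 ± 0.13 log2 (limma adjusted p = 0.00154). With all arrays the differences of Serpina1, Serpinb6b and Serpinb3 were −0.57 ± 0.17, −0.60 ± 0.19 and −0.56 ± 0.18 log2, each with a limma adjusted p of 0.0702. In all 3 genes replicate 3 was the lowest of the under-developed arrays.

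Serpina5, the protein C inhibitor of seminal plasma, which is known for a role in sperm formation, was low in some under-developed arrays only. It was 9.89 to 10.20 in normal obese arrays, 10.04, 9.55, 8.25 and 10.04 in under-developed replicates 1 to 4 and 10.05 and 9.91 in lean arrays. Replicates 1 and 4 lay inside the normal range, replicate 2 was lower and replicate 3 was far lower. The difference did not pass without replicate 4 (−0.74 ± 0.36 log2, limma adjusted p = 0.11), passed after centring on ribosomal protein genes (−1.10 ± 0.37, adjusted p = 0.0275) and did not pass with all arrays (−0.55 ± 0.36, adjusted p = 0.252).

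**Figure D3:**
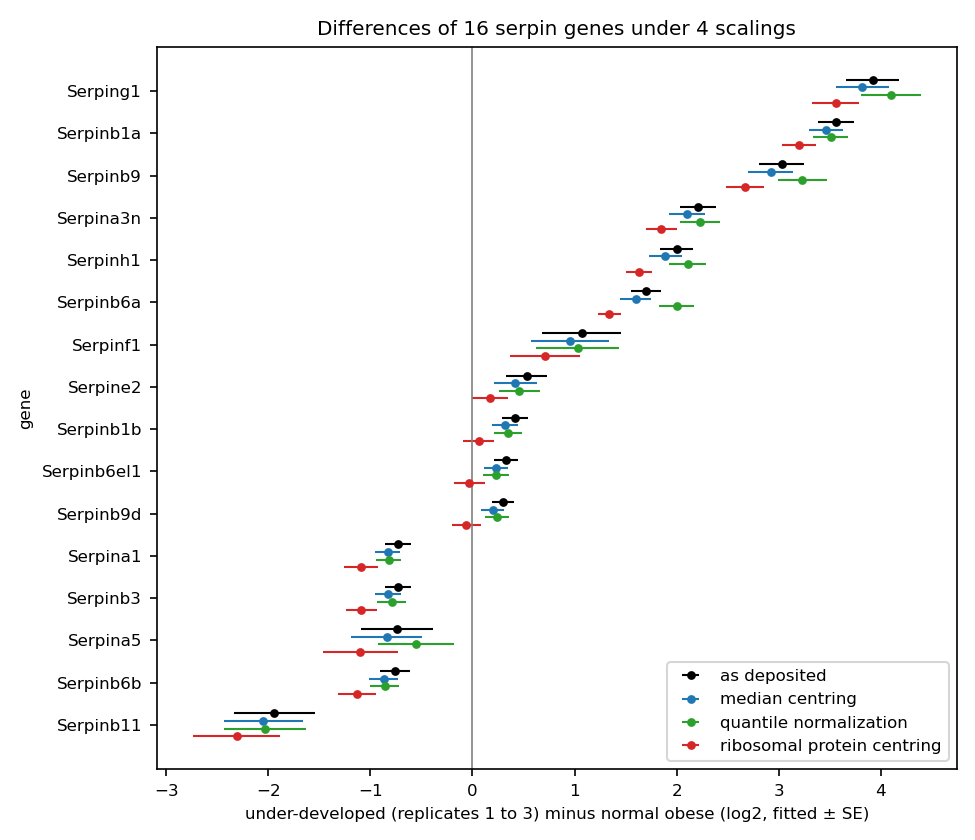
Fitted difference ± SE (log2, horizontal axis) between under-developed replicates 1 to 3 and the 4 normal obese arrays for the 15 called serpin genes and Serpina5 (rows), on the deposited scale and under 3 other scalings (colours). The 6 genes with the widest rise and the 4 that fell keep their side of 0, while Serpinb9d and Serpinb6el1 cross it with ribosomal protein centring.

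Members chosen for a known role but with small values were the plasma antithrombin gene Serpinc1, the heparin cofactor gene Serpind1, the corticosteroid carrier gene Serpina6, the epithelial gene Serpinb5 (maspin) and the neuronal gene Serpini1 (neuroserpin). Their fitted differences with all arrays were 0.03 ± 0.13, 0.01 ± 0.10, 0.15 ± 0.15, 0.20 ± 0.12 and 0.27 ± 0.12 log2. The limma adjusted p ran from 0.105 to 0.958 with all arrays and from 0.0516 to 0.769 without replicate 4. Of these, the signs of Serpinc1 and Serpind1 turned with median centring, quantile normalization and centring on ribosomal protein genes, and those of Serpina6 and Serpinb5 with the last alone. Over the 31 members that did not pass without replicate 4, the differences ran from −0.74 (Serpina5) to 0.31 log2 (Serpini1). A member that did not pass is not shown to be alike in the groups.

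The 4 under-developed arrays lay above the 4 normal obese arrays for 5 members (7.44% of all genes) and below them for 3 (10.4% of all genes). The higher members were Serpinb1a, Serpinb1b, Serpinb6el1, Serpinb9d and Serpini1, and the lower ones Serpina1, Serpinb11 and Serpinb6b. Their margins were often narrow in replicate 4, and median centring left 2 higher members. Replicates 1 to 3 lay above all 6 normal arrays for 10 members and below them for 4, against 28.7% and 26.7% of all genes. Replicate 4 lay above the 6 for 15 members (17.8% of all genes) and below them for 7 (18.6%), and 24 members were inside that range.

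Genes of clades A and B that neighbour each other moved in different ways. In the RefSeq gene order, 17 measured clade A genes stand in a run of 18 serpins. Within this run Serpina3n at the edge rose, Serpina1 fell, and the other 15 measured genes did not pass without replicate 4. A second run of 8 serpins of clade B (7 measured) holds Serpinb9 beside Serpinb6b, which in turn neighbours Serpinb1a. Without replicate 4, Serpinb9 and Serpinb1a rose, and Serpinb6b between them fell, while Serpinb1b, Serpinb9d and Serpinb6el1 of the same run rose by less on the deposited scale only. Serpinb11 and Serpinb3, which both fell, neighbour each other in another run of 6 genes, in which the other 4 did not pass.

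Normal testes of obese rats were set against those of lean rats, a comparison of body type without under-development. In limma 0 of 46 members passed (0.00% of all genes in either direction), with 0 at an unadjusted p under 0.05, where 22 genes higher (0.121%) and 58 lower (0.319%) were found over all genes. The differences ran from −0.36 ± 0.21 log2 (SE) for Serpina1fl2 to 0.58 ± 0.56 for Serpinf1, and the median was −0.01. Serpinf1 was also the most variable of the named members among normal obese testes (6.88 ± 0.47, SD, n = 4). The 2 lean arrays limit this comparison. Under-developed obese against normal lean testes gave 0 calls with all arrays (0.00% of all genes) and 8 at an unadjusted p under 0.05 upward (17.5%) and 1 downward (14.3%). Without replicate 4 it gave 8 higher (25.6% of all genes) and 4 lower (23.2%) members in limma. This comparison shares the under-developed arrays with the first, and without replicate 4 the difference of Serping1 in it was 4.25, of Serpinb1a 3.43 and of Serpinb9 3.41 log2.

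Proteases, their cofactors, other protease inhibitors, collagens and related genes were described from 10 lists with 108 measured genes. Not all of these are targets of serpins. With all arrays 0 passed in limma (0.00% of all genes), and without replicate 4, 59 rose and 16 fell, beside 29.6% and 26.4% of all genes. Among complement and contact proteases 4 of 9 rose and 1 fell. C1s and C1r, the proteases that the C1 inhibitor binds, differed from the normal obese mean by 3.84, 3.21, 3.95 and −0.22 log2 and by 3.29, 2.51, 3.35 and −0.12 in under-developed replicates 1 to 4. Cfd differed by 2.83, 2.25, 2.76 and −0.04 and Cfb by 2.64, 1.54, 2.23 and 0.16. Serping1, C1r and C1s were high in the same 3 arrays, in which 28.7% of all genes lay above all 6 normal arrays. Of other contact and complement proteases, named after their values were seen, Masp1, Masp2, Klkb1 and F12 did not pass. The gene of the list that fell was F11, also named after its values were seen (−0.32 log2 without replicate 4, limma adjusted p = 0.0368). Masp1 differed by 0.03, −0.34, 0.12 and −0.04 and Masp2 by −0.23, −0.43, 0.03 and 0.11, and the contact proteases Klkb1 and F12 had differences between −0.22 and 0.49. Of complement components without protease activity, 4 of 7 rose, led by C7 (3.84, 2.91, 3.63 and 0.02). The others that rose, C1qa, C1qb and C1qc, are also in the macrophage marker list described below. Further protease lists share genes with marker lists too, such as Acr and Cst12, so these lists are not independent.

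In the plasminogen activation list 8 of 10 genes rose and 0 fell. The cell surface genes Anxa2 and S100a10, which assemble plasminogen with its activator, differed by 3.48, 3.02, 3.60 and −0.23 and by 2.84, 2.55, 3.60 and −0.12 log2. The clearance receptor gene Lrp1 differed by 2.74, 2.04, 3.09 and −0.03 and Tnfrsf12a by 3.15, 2.39, 3.06 and 0.37. The activator gene Plat, a target of protease nexin-1 that was named after its values were seen, differed by 2.51, 2.00, 2.93 and −0.06. Among 13 genes of coagulation and thrombin signalling 6 rose and 2 fell, led by Thbd, the thrombin receptor of vessels (2.99, 1.98, 3.07 and −0.05), Pros1 (2.47, 1.68, 2.53 and −0.07) and F2r (2.48, 1.55, 2.49 and −0.14). The thrombin gene F2 itself, also named after its values were seen, differed by −0.35 to 0.23.

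Genes of leukocyte granule proteases showed smaller values. In that list 4 of 13 rose and 1 fell. The granzyme genes Gzmc, Gzma, Gzmf and Gzmk, which rose, differed by at most 1.07 log2 in any array. Known targets of Serpinb9 (Gzmb) and of the Serpinb1a counterpart (Elane, Ctsg and Prtn3) were named after their values were seen. Gzmb differed by 0.42, 0.08, 0.55 and −0.02, Elane by 0.17, 0.09, 0.23 and 0.11 and Ctsg by 0.11, 0.06, 0.02 and 0.15, and these 3 did not pass. The proteinase 3 gene Prtn3 differed by −0.36, −0.33, −0.28 and 0.13 and was the gene of the list that fell (−0.32 without replicate 4, limma adjusted p = 0.0436). In the list of cathepsins and caspases, all 9 measured genes rose, led by Ctsb (2.89, 2.44, 3.06 and −0.03), Ctss (3.12, 1.79, 2.71 and −0.13), Ctsd, an aspartic protease (2.51, 1.85, 2.85 and −0.09), and Ctsc (2.41, 1.55, 2.53 and 0.00).

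Collagens and the enzymes that assemble them, the clients and partners of Serpinh1, rose in 12 of 13 genes. The leading members were Col18a1 (2.84, 1.95, 3.30 and 0.08), the lysyl hydroxylase gene Plod2 (2.69, 2.15, 3.38 and −0.12), the procollagen chaperone gene Fkbp10 (3.05, 1.91, 2.90 and −0.27) and P4hb (2.58, 1.86, 2.50 and 0.03). Other collagen genes, named after their values were seen, differed by less. Without replicate 4, Col3a1, Col1a2 and Col1a1 rose by 2.01, 1.30 and 0.64 log2, and Col5a1 did not pass (0.36, limma adjusted p = 0.0663). Testicular and acrosomal serine proteases went the other way, with 0 of 9 higher and 8 lower. Prss37 differed by −4.04, −1.30, −5.53 and −0.03, Prss54 by −2.25, −1.08, −5.89 and −0.14, and acrosin (Acr) by −2.46, −1.33, −5.11 and 0.00. Among other protease inhibitors 11 of 18 rose and 2 fell, led by the metalloproteinase inhibitor gene Timp1 (3.85, 3.21, 3.74 and −0.37) and the broad inhibitor A2m (2.88, 2.32, 2.97 and −0.07). In the angiotensin list 1 of 7 rose (Anpep) and 2 fell (Ace and Mas1). Angiotensinogen (Agt), a serpin by structure whose symbol keeps it out of the members, was named after its values were seen and differed by −0.16, 0.11, 0.12 and −0.20.

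**Figure D4:**
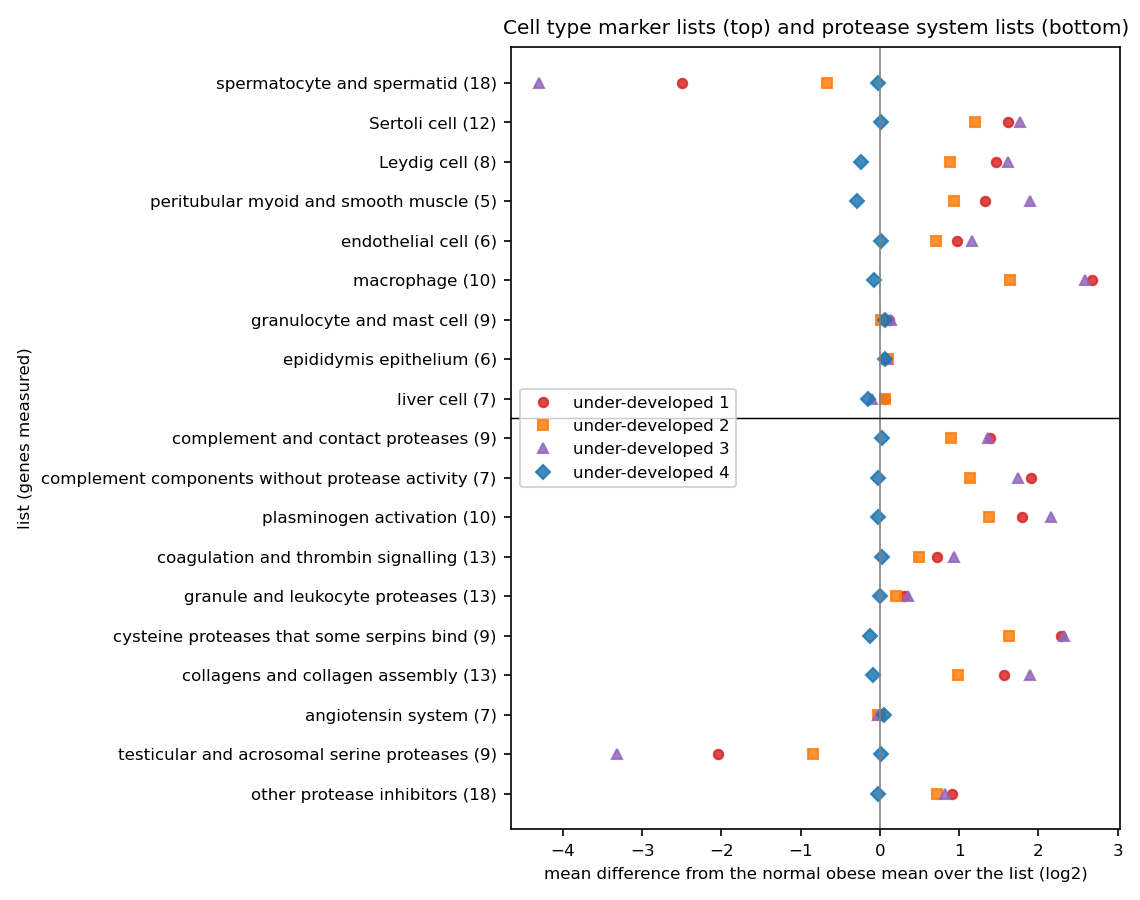
Mean difference from the normal obese mean (log2, horizontal axis) of 9 cell type marker lists and 10 protease system lists (rows, with the number of genes measured) in under-developed replicates 1 to 4 (symbols). Replicate 4 lies near 0 in each list, and replicates 1 to 3 lie below 0 for germ cell markers and testicular proteases and above 0 for macrophage markers, cathepsins and plasminogen activation.

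Cell type markers moved in the same under-developed arrays as the called serpins. Over all genes 29.6% rose and 26.4% fell without replicate 4. Without replicate 4, all 10 macrophage markers rose, and their summed linear level was 2052 to 2881 in normal obese arrays, 1833 to 2401 in lean arrays and 18928, 7714, 17651 and 2324 in under-developed replicates 1 to 4. Of 18 spermatocyte and spermatid markers 16 fell, and their sum was 82919 to 84888 in normal obese arrays and 20911, 56990, 6180 and 82172 in under-developed replicates. Sertoli cell markers rose in 10 of 12 and fell in 1, with sums of 10323 to 11253 and of 32805, 25639, 33389 and 10981. Leydig cell markers rose in 6 of 8, myoid markers in 4 of 5 and endothelial markers in 5 of 6. The part of these cell types in the serpin results was not tested. Array minima ran from 2.28 to 2.42 log2, so no marker could be at 0. A low value does not show that a marker was detected.

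Markers of other cell types that can carry serpins were mixed. Granulocyte and mast cell markers had a summed level of 245 to 267 in normal obese and 272 to 289 in under-developed arrays, with 0 of 9 higher and 1 lower (S100a8) without replicate 4. Liver markers, relevant because the liver makes most plasma serpins, rose in 1 of 7 (Hp) and fell in 3 (Alb, Fgb and Fgg). Their sum was 854 to 1092 in normal obese, 973 to 1003 in lean and 2244, 1697, 2432 and 789 in under-developed arrays. Hp alone, at 10.84, 10.29 and 11.02 log2, made up most of the sums of under-developed replicates 1 to 3. The haptoglobin gene Hp differed by 2.08, 1.53, 2.26 and −0.75, the fibrinogen gene Fgg by −0.96, −0.67, −1.31 and 0.03, and the albumin gene Alb by −0.55, −0.44, −0.65 and 0.01. Epididymis markers rose in 1 of 6 (Rnase10). The part of these cell types in the serpin results was not tested either.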

How the data were processed

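RNA of 10 rat testis samples was hybridised to 1 array each, and the number of testes in a sample is not stated. The authors deposited log2 values for 36685 probe sets, made with RMA per the submitters' processing notes; its version, settings and the genome build are not given in the sources used here. RMA equalises arrays, so a change in tissue make-up shifts genes relative to each other. A single gene symbol was listed for 18511 probe sets and several for 575; 17599 stayed without a name here. RefSeq (GRCr8) gave current symbols for 18394 by gene number. Where a gene had several probe sets (291 genes) the brightest on average was kept, leaving 18166 genes without a filter.

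Groups came from the titles. Differences were fitted on all 10 arrays with limma 3.58.1 in R 4.3.3 (lmFit, eBayes), adjusted by Benjamini-Hochberg over all genes at 0.05. Summaries used Python 3.11.15, numpy 2.4.6, pandas 2.3.3 and matplotlib 3.10.9. On simulated arrays for under-developed against normal obese testes (18166 genes, 200 changed), 98% of genes set to differ by 1 log2 were found, as were 100% of those set to 3 log2, beside 13 false calls; no simulated array stood apart.

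The members and lists were chosen with earlier results of these data known. Named were the 12 members with the largest fitted difference, any that passed, and members of known role (18 in all, with Serpinb6a for Serpinb6), and up to 4 genes per list by size. Scalings, filters, probe set choice, moderation, an offset, array weights, 2-group fits, the replicate number as a block and leaving out each array were the alternatives. The search of protein sequences was not run. The number of arrays limits the precision.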

Additional observations from a re-analysis of the deposited data

Results flagged for a closer look

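Serpini1, the neuroserpin gene, had 1 array far from the rest of its group. Under-developed replicate 1 stood at 6.48 log2, while replicates 2, 3 and 4 stood at 6.06, 6.08 and 6.04, so that the gap to the nearest array took up 0.908 of the range of the 4 arrays. The gap rule was applied to 36 groups of 4 arrays over the 18 named members and flagged 1. By chance this rule flags about 1 group in 20, so 1 flag is no more than chance would give.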

How the results depend on the processing

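With all arrays 0 members passed in limma, also with the replicate number as a replicate block (0 members); same-numbered arrays had deviations that correlated by 0.077, 0.007, 0.024 and 0.26, so the numbers were not taken as pairs. Array weights, which gave under-developed replicate 4 the lowest weight (0.0619), called 12 members against normal obese and 13 against lean testes. Over all 18166 genes, array weights called 9862 and 9620. Leaving out each array gave 0 to 15 and 0 to 12 members, and 0 to 75 genes of the protease lists, the highest each time without under-developed replicate 4. Without that array, 10171 and 8866 of all genes were called. The members above without overlap numbered 5, beside 7.44% of all genes. They became 2, 3, 1 and 0 with median centring, quantile normalization, ribosomal protein centring and without dim genes, and 5 to 12 leaving out each array. Those below (3, beside 10.4% of all genes) became 1 with ribosomal protein centring. The members' median difference (0.08) was 0.01, 0.00 and −0.17 under the 3 scalings, 0.98 without dim genes, 0.02 with an offset of 50 and 0.02 to 0.13 leaving out each array. The setting without dim genes kept 10 of the 46 members, by their mean over all arrays. Serping1, Serpina3n and Serpinf1 stayed in only through their high under-developed arrays, so the 0.98 (−0.09 over all genes) does not describe the family. Members at least 1 log2 away became 0 above in replicate 4 (quantile), 5 below in replicate 1 (ribosomal) and 5 below in replicate 3 (each scaling). Without replicate 4, the 11 higher members became 6 under each scaling, without dim genes (where Serpinb1a was not tested) and with the offset. Leaving out a further array gave 6 to 13 higher members. The 4 lower became 22 with ribosomal protein centring, beside 46.1% of all genes. Signs turned for Serpina6 (−0.11) and Serpinb5 (−0.05) with ribosomal protein centring. For Serpinc1 they turned under the 3 scalings (−0.05, −0.04 and −0.23), with −0.06 to 0.12 leaving out each array, and for Serpind1 likewise (−0.07, −0.04 and −0.24), with −0.06 to 0.06. Apart from the arrays left out and dim genes removed, the cause was not tested. The added settings without replicate 4 were chosen after seeing the data.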

Other observations

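Serpina3m, a clade A gene outside the naming rule that was singled out after its values were seen, was the only member at least 1 log2 above the normal obese mean in under-developed replicate 4. It stood at 5.93 log2 there, against 4.62, 4.86 and 4.77 in replicates 1 to 3, 5.10, 4.81, 4.81 and 4.96 in normal obese replicates and 5.08 and 4.86 in lean replicates. The difference in replicate 4 was 1.02 log2, and 0.97 after quantile normalization. Serpina3n, high in replicates 1 to 3, was at 6.44 in that array.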
